A study of Mus musculus with 2 samples.

Results

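The transcription factor p53 is stabilized when DNA is damaged or ribosome assembly and nucleotide supply are disturbed, and it then activates genes that stop the cell cycle, repair DNA, start apoptosis or feed back on p53 itself. In dividing T cells this program is known as a checkpoint against errors of replication, and its main negative arm is the ubiquitin ligase Mdm2, which is itself a p53 target. The 10 genes described here are widely described p53 targets: Cdkn1a (the CDK inhibitor p21) and Ccng1 (cyclin G1) of the cell cycle arm, Bax and Bbc3 (PUMA, a BH3-only protein) of the mitochondrial apoptosis arm, Aen (an exonuclease linked to apoptosis), Phlda3 (an inhibitor of Akt membrane recruitment), Zmat3 (an RNA-binding zinc finger protein), Trp53inp1 (a protein that supports p53 activity and autophagy), Mdm2, and Eda2r (a TNF receptor family member). They are 10 of the 32285 genes in the deposited tables and were found by symbol. They were chosen on levels measured in these same libraries, so that their KO to WT differences are given as a description and were not tested.

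The cells were splenic YFP+7AAD- Tregs of 7-day-old C57BL/6J mice, profiled with droplet single-cell RNA sequencing in which each molecule carries a unique molecular identifier (UMI). KO mice were Zfp335fl/flFoxp3-Cre, and WT mice carried the Foxp3-driven Cre without the floxed gene, so that Cre was present in both. There was 1 library per genotype, and the number of mice in each was not given in the sources used here. No replicate spread could therefore be measured, and every interval below is a 95% interval for counting error only.

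A floor of 300 genes and a ceiling of 5% mitochondrial UMIs per cell left 8053 WT cells with 54204367 UMIs and 13767 KO cells with 57649800 UMIs. Of these, 7476 WT and 12838 KO cells fell in 8 clusters with T cell receptor and CD3 genes and are called T-lineage cells. Kept WT cells were deeper than kept KO cells, with medians of 5061 and 2713 UMIs, and haemoglobin genes took 0.0526% of T-lineage UMIs in WT and 0.319% in KO. The targeted gene was checked first: T-lineage cells held 396 UMIs of Zfp335 in WT and 41 in KO, a ratio of 0.0963 (0.0681 to 0.133). The Treg gene Foxp3 was detected at 40.6 CPM (a gene’s UMIs per 1000000 UMIs of the same cells) in WT and 44.6 CPM in KO. In cells of other lineages pooled, Zfp335 had 38 UMIs in WT and 17 in KO, a ratio of 0.457 (0.242 to 0.829). The 2 libraries shared 29 cell barcodes among the kept cells.

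T-lineage clusters were named from marker genes. Resting Treg-like cells (2456 WT, 5127 KO) had Dapl1 and Ly6c1 among their leading genes, effector Treg-like cells (1598 WT, 81 KO) had Klrg1, Cxcr3 and Ccr2, and activated Treg-like cells (513 WT, 1020 KO) had Nefh, with 8 of 11 activation markers and 22 of 24 S-phase genes raised. Phlda3 was itself among the 10 leading genes of the activated cluster, although none of the members entered the clustering. Cycling cluster 5 (602 WT, 786 KO) was led by histone genes and the mitotic kinase gene Plk1, and cycling cluster 6 (631 WT, 373 KO) by mitosis genes together with the effector genes Gzmb, Klrg1 and Cxcr3. Cluster 7 (587 WT, 290 KO) was led by heat-shock and nuclear RNAs and was left unnamed, as were the shallow clusters 2 (1077 WT, 4366 KO) and 8 (12 WT, 795 KO), whose leading genes were haemoglobin and neutrophil granule genes.

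Where p53 binds, its DNA element is built from 10-base half-sites, and the stretches printed here show where exact matches to the consensus p53 half-site lie beside the starts of member genes (RefSeq promoter windows, GRCm38.p6, 250 bases before to 50 after each start). Of the 8 members with a window, Cdkn1a, Mdm2, Bax, Ccng1 and Aen held a match, and Phlda3, Bbc3 and Eda2r did not; Trp53inp1 and Zmat3 had no entry. Of all 27025 gene symbols with a window, 9.55% held a match, and of all 32851 windows 8.36%. The motif reads the same on both strands. A match of these letters is a description of the sequence and not a measured binding site. The half-sites are in capitals, and each stretch is written 5′ to 3′ along the gene's strand. Position 1 is the RefSeq start of the window, and the base before it is -1. These starts can differ from the GENCODE gene starts given below. Cdkn1a had 2 windows, of which 1 held a match, and its positions are counted from the RefSeq start of that window. Aen had 2 windows, and its position is counted from the more upstream of these RefSeq starts.
Cdkn1a, chr17:29090876-29090967, plus strand, 2 half-sites 12 bases apart, the nearer beginning at position -51 from the start: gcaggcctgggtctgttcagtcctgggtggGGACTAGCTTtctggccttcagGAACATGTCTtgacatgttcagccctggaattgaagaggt
Mdm2, chr10:117710905-117710974, minus strand, from position -186: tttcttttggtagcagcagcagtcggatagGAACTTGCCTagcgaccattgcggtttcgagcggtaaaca
Ccng1, chr11:40755432-40755501, minus strand, from position -185: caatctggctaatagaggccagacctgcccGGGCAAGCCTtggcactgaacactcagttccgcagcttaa
Bax, chr7:45467060-45467129, minus strand, from position -201: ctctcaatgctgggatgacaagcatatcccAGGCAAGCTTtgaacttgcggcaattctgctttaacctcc
Aen, chr7:78895927-78895956, plus strand, in an annotated exon of the gene, position 11 from its upstream start: agccgaagccGGGCTTGTCCgggcaaggag
The Cdkn1a, Mdm2, Ccng1 and Bax stretches overlapped no annotated exon.

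The member genes lie on 8 chromosomes in the GENCODE annotation of the same build. Cdkn1a spans chr17:29090976-29100727, Phlda3 chr1:135766119-135769136, Bbc3 chr7:16308393-16318205, Aen chr7:78895854-78911209 and Trp53inp1 chr4:11156431-11174379 on the plus strand. Mdm2 spans chr10:117688875-117710758, Bax chr7:45461697-45466898, Ccng1 chr11:40748552-40755311, Zmat3 chr3:32334792-32366014 and Eda2r chrX:97333840-97377216 on the minus strand. Bax, Bbc3 and Aen thus share chromosome 7 but are not neighbours.

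Summed over the 10 members, T-lineage cells held 365 CPM (359 to 370) in WT and 564 CPM (558 to 571) in KO, a ratio of 1.55 (1.52 to 1.58). Of the 9 members with at least 50 UMIs, 6 were at least 1.5-fold higher in KO, namely Phlda3, Cdkn1a, Bbc3, Aen, Zmat3 and Bax, where 6.14% of all 12193 genes with as many UMIs were; no member was at least 1.5-fold lower, where 12.3% of those genes were. Since the members were chosen on this contrast, nothing is read from these counts. Cells of matched depth gave a smaller summed ratio, and taking them also changed the mix of classes, since 1948 of the 2920 WT and 3497 of the 5382 KO cells in the depth window were resting. The summed ratio was 1.29 (1.24 to 1.34) in these cells of 2000 to 6000 UMIs and 1.38 (1.31 to 1.44) with every cell thinned to 1000 UMIs. In either, 4 members were past 1.5-fold. No share of all genes is given for these 2 settings, so nothing is read from that count.

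Among the cell cycle genes, Cdkn1a was at 7.12 CPM (6.39 to 7.91, 345 UMIs) in the WT library and at 37.8 CPM (36.2 to 39.6, 1970 UMIs) in the KO library, a ratio of 5.31 (4.74 to 5.98). Of all 12193 genes with at least 50 UMIs, 0.23% had a higher ratio. Nothing is read from that rank, as the members were chosen on this contrast. Ccng1 had 32.3 CPM (30.7 to 33.9) in WT and 41.0 CPM (39.3 to 42.8) in KO, a ratio of 1.27 (1.19 to 1.36). In cells of 2000 to 6000 UMIs the Ccng1 ratio was 1.02 (0.8999 to 1.165), not distinguishable from 1. The cell cycle arm thus held both a member at a low WT level with a large ratio and one at a higher WT level with a ratio near 1.

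Of the apoptosis genes, Bbc3 was at 8.17 CPM (7.39 to 9.02, 396 UMIs) in the WT library and at 21.5 CPM (20.3 to 22.8, 1119 UMIs) in the KO library, with a ratio of 2.63 (2.34 to 2.96). Bax supplied most of the member UMIs in each library, 9638 of 17659 in WT and 15710 of 29380 in KO, with 199 CPM (195 to 203) in WT and 302 CPM (297 to 307) in KO, a ratio of 1.52 (1.48 to 1.56). Aen had 29.2 CPM (27.7 to 30.7) in WT and 48.6 CPM (46.7 to 50.6) in KO, a ratio of 1.67 (1.56 to 1.78). The summed value therefore mostly follows Bax, and the single members are given beside it.

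Phlda3 was at 3.76 CPM (3.23 to 4.34, 182 UMIs) in the WT library and at 30.9 CPM (29.4 to 32.4, 1608 UMIs) in the KO library, a ratio of 8.22 (7.05 to 9.64). A higher ratio was held by 9 of 12193 genes, a rank from which likewise nothing is read. In cells of 2000 to 6000 UMIs the Phlda3 ratio was 4.34 (3.24 to 5.92). Zmat3 had 8.44 CPM (7.64 to 9.30) in WT and 13.6 CPM (12.6 to 14.7) in KO, a ratio of 1.61 (1.43 to 1.83), but 1.14 (0.913 to 1.43) in cells of 2000 to 6000 UMIs, which is under 1.5-fold and not distinguishable from 1. Both encode proteins that act outside the core arrest and death machinery, and they differed widely in size of ratio.

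The members that act on p53 itself had ratios nearer to 1 or below it. Mdm2 had 33.8 CPM (32.2 to 35.5) in WT and 38.6 CPM (36.9 to 40.3) in KO, a ratio of 1.14 (1.07 to 1.22). In cells of 2000 to 6000 UMIs the Mdm2 ratio was 1.01 (0.9005 to 1.138), not distinguishable from 1. Trp53inp1 was the one member that was lower in KO, with 42.8 CPM (41.0 to 44.7) in WT and 30.6 CPM (29.1 to 32.1) in KO, a ratio of 0.715 (0.669 to 0.763). Eda2r had no UMI in any kept cell of either library, so no ratio can be given for it; a count of 0 allows up to 0.0762 CPM in WT and 0.0709 CPM in KO T-lineage cells (exact Poisson upper limits).

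The members' KO to WT ratios were of unequal size in the T cell states, as the plot of levels by class shows, and with 1 library per genotype these differences were not tested. In resting Treg-like cells, 3 of 9 members (Cdkn1a, Phlda3 and Bbc3) were at least 1.5-fold higher in KO, where 2.77% of all genes were, and the summed ratio was 1.27 (1.22 to 1.31). In activated Treg-like cells, 7 of 9 were (4.29% of all genes), and the summed ratio was 1.86 (1.78 to 1.96). In cycling cluster 5, 7 of 9 were (8.19% of all genes), with a summed ratio of 1.82 (1.74 to 1.91). The effector Treg-like class also had 7 of 9 (11.1% of all genes) and a summed ratio of 1.86 (1.68 to 2.05), but rested on 81 KO cells.

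**Figure D1:**
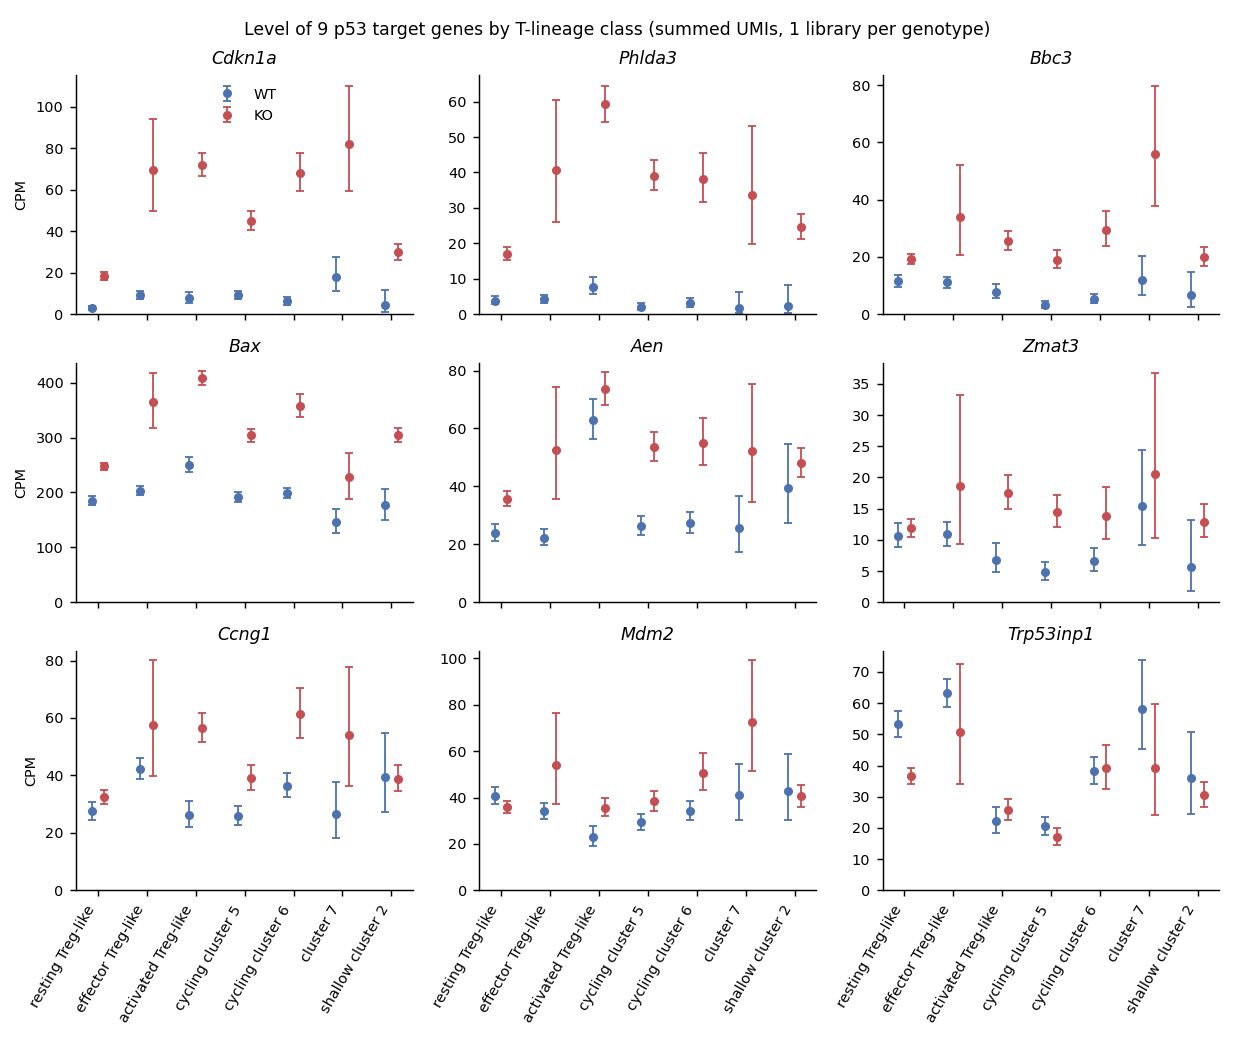
Level of 9 members (CPM of summed UMIs, y axis, each panel on its own scale from 0) in 7 T-lineage classes (x axis), with WT in blue, KO in red and bars for 95% Poisson intervals. KO points for Cdkn1a and Phlda3 lie above WT in each class shown, whereas Mdm2 and Trp53inp1 were lower in KO than WT in resting Treg-like cells.

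Cdkn1a in resting Treg-like cells was 2.83 CPM (1.93 to 3.99) in WT and 18.2 CPM (16.5 to 20.1) in KO, a ratio of 6.44 (4.49 to 9.54). In activated Treg-like cells it was 7.79 CPM (5.59 to 10.6) in WT and 71.8 CPM (66.3 to 77.5) in KO, a ratio of 9.22 (6.72 to 12.97). Within the KO library alone, Cdkn1a in resting cells was the lowest of the named classes, and activated cells had 3.94 times that level (3.47 to 4.48), cycling cluster 6 had 3.73 times (3.15 to 4.41) and cycling cluster 5 had 2.47 times (2.14 to 2.85). In WT, too, resting cells were lowest, with 2.75 times their level (1.69 to 4.52) in activated cells, 3.21 times (2.15 to 4.93) in effector cells and 3.22 times (2.13 to 4.98) in cluster 5. The small cluster 7 was at 18.0 CPM (11.1 to 27.5) in WT and 82.0 CPM (59.6 to 110) in KO. Activated cells, effector cells, cycling cluster 6 and cluster 7 had overlapping intervals in KO.

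Phlda3 followed a different order in the 2 libraries. In WT it was 3.80 CPM (2.75 to 5.12) in resting cells, 7.79 CPM (5.59 to 10.6) in activated cells and 2.00 CPM (1.22 to 3.09) in cycling cluster 5, so that cluster 5 had 0.527 times the resting level (0.294 to 0.915). In KO it was 17.0 CPM (15.3 to 18.8) in resting cells, 59.2 CPM (54.3 to 64.4) in activated cells and 39.1 CPM (35.0 to 43.5) in cluster 5, which had 2.30 times the resting level (1.97 to 2.67). The KO to WT ratio of Phlda3 was accordingly 4.48 (3.26 to 6.29) in resting cells and 19.5 (12.4 to 32.4) in cluster 5.

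Bbc3 was at 11.5 CPM (9.60 to 13.6) in WT and 19.2 CPM (17.4 to 21.1) in KO resting cells, a ratio of 1.67 (1.37 to 2.05). In cluster 5 it was at 3.30 CPM (2.27 to 4.64) in WT and 19.1 CPM (16.2 to 22.2) in KO, a ratio of 5.77 (3.95 to 8.66), so that the KO levels of both classes overlapped and the WT levels did not. Bax was at 185 CPM (177 to 193) in WT and 248 CPM (241 to 254) in KO resting cells, and at 250.3 CPM (237 to 264) and 408 CPM (395 to 422) in activated cells, with ratios of 1.34 (1.27 to 1.41) and 1.63 (1.53 to 1.74).

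Several members were near equal in resting cells of both genotypes and higher in KO in activated cells. Zmat3 had a ratio of 1.11 (0.894 to 1.40) in resting and 2.56 (1.77 to 3.79) in activated cells. Ccng1 had 1.18 (1.03 to 1.35) in resting and 2.16 (1.78 to 2.62) in activated cells. Mdm2 was lower in KO in resting cells, at 40.7 CPM (37.0 to 44.5) in WT and 36.0 CPM (33.5 to 38.6) in KO, and higher in KO in activated cells, at 23.2 CPM (19.2 to 27.7) in WT and 35.7 CPM (31.9 to 39.8) in KO. Its KO level was thus the same in both classes within counting error, and it was the WT level that differed. Aen went the other way, with a ratio of 1.49 (1.30 to 1.72) in resting cells and 1.17 (1.03 to 1.34) in activated cells, where WT cells already held 62.9 CPM (56.3 to 70.0).

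Trp53inp1 was 53.2 CPM (49.0 to 57.6) in WT and 36.6 CPM (34.1 to 39.2) in KO resting cells, a ratio of 0.688 (0.618 to 0.766). In activated cells the values were 22.2 CPM (18.4 to 26.6) and 25.6 CPM (22.4 to 29.2), which were not distinguishable at this depth. It was also the member least like the rest over classes. Across 15 groups of cells (library by class, which share libraries and depth), its log2 level had a Pearson r of -0.05 with the mean standardized profile of the other 9 members. The same r was 0.936 for Bbc3, 0.881 for Cdkn1a, 0.845 for Phlda3, 0.825 for Ccng1, 0.822 for Zmat3, 0.666 for Bax, 0.624 for Mdm2 and 0.586 for Aen. Eda2r, with no UMI, added nothing to these profiles. The groups span WT and KO, the contrast on which the members were chosen, so nothing is read from the size or order of these r values.

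The classes differ in depth between libraries, with medians of 9184 UMIs in WT and 7385 in KO activated cells and 4308.5 and 3750 in resting cells. In cells of 2000 to 6000 UMIs, the summed ratio was 1.24 (1.18 to 1.29) in resting and 1.41 (1.21 to 1.66) in activated cells (93 WT, 351 KO), and the Phlda3 ratio was 5.13 (3.26 to 8.49) and 2.69 (1.16 to 7.66). The Cdkn1a ratio at that depth was 5.82 (3.71 to 9.60) and 3.24 (1.41 to 9.15). For Phlda3 and Cdkn1a the intervals of both classes thus overlapped, with the larger value in resting cells. The Ccng1 ratio at that depth was 1.12 (0.944 to 1.32) in resting cells and 0.739 (0.412 to 1.385) in activated cells on 17 and 42 UMIs, so that the higher KO level of Ccng1 in activated cells was not seen there. The Mdm2 ratio was 0.916 (0.794 to 1.06) and 1.33 (0.684 to 2.84), and the Zmat3 ratio 1.26 (0.952 to 1.68) and 2.09 (0.481 to 18.98), all with intervals that include 1. The Aen ratio was 1.49 (1.25 to 1.78) in resting cells and 0.889 (0.597 to 1.35) in activated cells, where the interval includes 1.

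In the cycling clusters the depth gap was larger, with medians of 15000 UMIs in WT and 9258.5 in KO in cluster 5 and 11077 and 7073 in cluster 6. In cells of 2000 to 6000 UMIs the summed ratio was 2.29 (1.69 to 3.17) in cluster 5 (43 WT, 191 KO) and 1.68 (1.34 to 2.13) in cluster 6 (53 WT, 136 KO), against 1.82 and 2.00 over all their cells. Matching depth thus gave a smaller summed ratio in activated cells and cluster 6 and a larger one in cluster 5, on few WT cells in each. Single members had few WT UMIs at that depth. In cluster 5 the Cdkn1a ratio was 3.07 (0.976 to 15.5). Phlda3 had 0 WT and 32 KO UMIs (lower limit 1.93), and Bbc3 0 and 11 (lower limit 0.593). In cluster 6 the Phlda3 ratio was 2.76 (0.807 to 14.65) and the Bbc3 ratio 3.22 (0.963 to 16.9). Cdkn1a had 0 and 44 UMIs there (lower limit 5.27).

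Cells were then divided by UMIs of 48 S-phase and G2/M genes after thinning to 1000 UMIs, with 0 taken as non-cycling, 2 or more as cycling and 1 as near the cut, where 25.95% of WT and 19.5% of KO thinned T-lineage cells lay. In non-cycling cells (1516 WT, 1931 KO), the summed level was 397 CPM (384 to 410) in WT and 511 CPM (496 to 526) in KO, a ratio of 1.29 (1.23 to 1.35). In cycling cells (3229 WT, 7536 KO) it was 347 CPM (340 to 354) in WT and 582 CPM (574 to 590) in KO, a ratio of 1.68 (1.64 to 1.72), and cells near the cut lay between, at 1.43 (1.37 to 1.49). Of the 9 members, 3 were at least 1.5-fold higher in KO in non-cycling cells (3.87% of all genes) and 6 in cycling cells (7.22% of all genes). In non-cycling cells 1 member, Trp53inp1 (ratio 0.657), was at least 1.5-fold lower in KO, where 11.7% of all genes were. Median depth was 6901 UMIs in WT and 2386.5 UMIs in KO cycling cells, and 5257 and 4101 UMIs in non-cycling cells. Shallow cluster 2, with 4366 of its cells in KO, had 89.05% of its thinned cells counted as cycling. In cells of 2000 to 6000 UMIs the summed ratio was 1.15 (1.07 to 1.23) in non-cycling and 1.38 (1.30 to 1.46) in cycling cells, and with thinning to 1000 UMIs it was 1.11 (1.00 to 1.23) and 1.48 (1.38 to 1.58).

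Cycling cells with at least 2 UMIs of 1 phase were split by whether S-phase or G2/M genes had more. The ratio of each member with UMIs was largest on the G2/M side, among them Zmat3 (1.76 on the S-phase and 2.47 on the G2/M side) and Bax (1.58 and 1.66). The S-phase and G2/M intervals overlapped for Phlda3, Zmat3, Bax, Ccng1, Mdm2 and Trp53inp1. Cdkn1a had a ratio of 3.93 (2.97 to 5.28) in cells with no cycle UMI, 3.92 (3.18 to 4.87) on the S-phase side and 8.03 (6.37 to 10.2) on the G2/M side. Bbc3 had 1.93 (1.52 to 2.47), 2.52 (1.98 to 3.24) and 4.92 (3.72 to 6.61) in the same order, and Phlda3 had 4.51 (3.28 to 6.33), 9.39 (6.86 to 13.2) and 16.02 (10.9 to 24.6). WT levels of Bbc3 differed along this order more than KO levels did: Bbc3 in WT was 11.6 CPM (9.495 to 14.1), 7.43 CPM (5.98 to 9.12) and 4.69 CPM (3.57 to 6.05), while in KO it was 22.5 CPM (19.5 to 25.8), 18.7 CPM (16.5 to 21.2) and 23.1 CPM (20.6 to 25.8). Trp53inp1 was lower in KO on each side. These calls read few UMIs per cell, and free RNA of other cells can enter them. No depth-matched values are given for this split, although median depth in cycling cells was 6901 UMIs in WT and 2386.5 in KO.

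**Figure D2:**
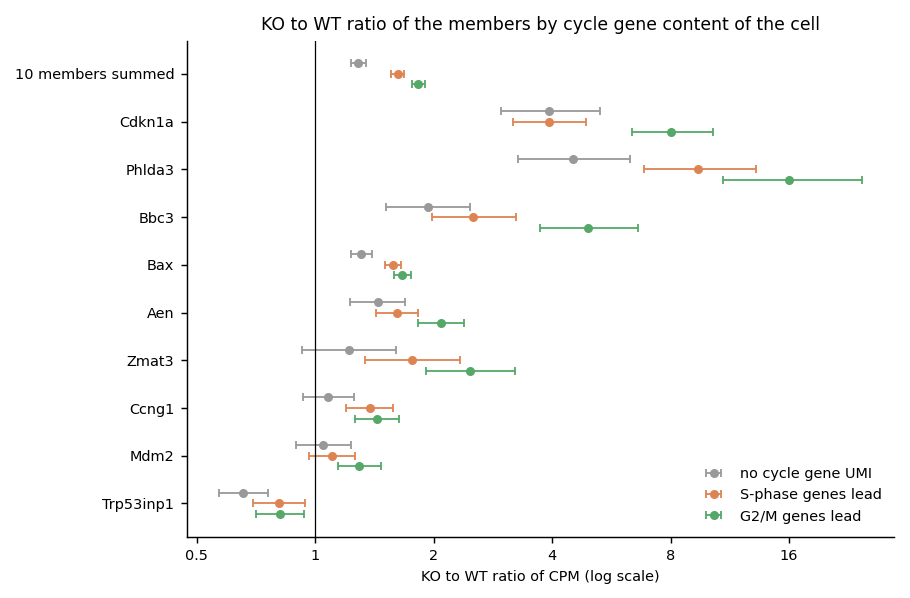
KO to WT ratio of CPM (log axis) for the 10 members summed and for 9 single members, in T-lineage cells with no cycle gene UMI (grey), more S-phase UMIs (orange) or more G2/M UMIs (green), with 95% conditional binomial intervals. The summed ratio was 1.29, 1.62 and 1.82 in that order, and Trp53inp1 lies left of 1 in each.

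Within 1 library the relation to cycling depended on the class. Over all T-lineage cells, the summed level in cycling cells was 0.873 times that of non-cycling cells (0.840 to 0.908) in WT and 1.14 times (1.10 to 1.18) in KO. Within activated Treg-like cells it was lower in cycling cells in both, at 0.791 times (0.704 to 0.890) in WT and 0.710 times (0.662 to 0.761) in KO. In those KO cells, non-cycling against cycling levels were 103 CPM and 57.4 CPM for Cdkn1a, 84.4 CPM and 46.5 CPM for Phlda3, 98.4 CPM and 48.3 CPM for Ccng1, and 42.2 CPM and 19.6 CPM for Bbc3. Their cycling to non-cycling ratios were 0.555 (0.446 to 0.697), 0.551 (0.432 to 0.710), 0.491 (0.390 to 0.622) and 0.466 (0.327 to 0.676). Both groups had similar depth, with 120 non-cycling cells at a median of 6751 UMIs and 732 cycling cells at 7842.5 UMIs. In resting KO cells the summed level did not differ between cycling and non-cycling cells beyond counting error (1.04 times, 0.993 to 1.09). Of the thinned resting cells of both libraries, 33.75% counted as cycling, though 0 of 24 S-phase and 0 of 24 G2/M genes were raised in that cluster. The call may thus separate dividing cells poorly in this class. Of the 4 groups of activated cells (library by cycling), KO cells with no cycle gene UMI had the highest level of each of these 4 genes.

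At equal depth the members were sparse in single cells. After thinning to 1000 UMIs, any member was detected in 30.9% (29.7 to 32.03) of 6408 WT and 38.0% (37.1 to 38.9) of 11755 KO T-lineage cells, against 72.8% and 68.5% without thinning. Thinning left out 1068 WT and 1083 KO cells as too shallow. At least 3 different members were seen in 0.312% (0.191 to 0.482) of WT and 1.27% (1.07 to 1.49) of KO cells, and in 2.95% (2.00 to 4.18) of KO activated cells. Cdkn1a was detected in 0.562% (0.394 to 0.777) of WT and 2.37% (2.10 to 2.66) of KO cells, and Phlda3 in 0.359% (0.228 to 0.538) and 2.20% (1.95 to 2.49). The share of KO cells with a Phlda3 UMI was 1.42% (1.11 to 1.79) in resting cells and 4.23% (3.08 to 5.65) in activated cells.

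Cells of other lineages, in which Foxp3-driven Cre is not known to act, were compared because free RNA and doublets bring T cell UMIs into them. Zfp335 was nevertheless lower in KO in erythroid-like cells, on 14 WT and 3 KO UMIs (ratio 0.229, 0.0422 to 0.820). Whether Cre had acted in these cells was not tested. In erythroid-like cells at 1000 UMIs, Phlda3 was detected in 0.830% (0.101 to 2.97) of 241 WT and 1.39% (0.559 to 2.84) of 505 KO cells, with medians of 5502 and 2440 UMIs before thinning. The share in KO resting cells (median 3782 UMIs) is not distinguishable from that background, whereas the interval of the share in KO activated cells (median 7397 UMIs) lies above it. Without thinning, the shares were 4.275% in erythroid-like, 5.38% in resting and 22.9% in activated KO cells. Per 1000 UMIs of 9 T cell genes, Phlda3 had 4.31 UMIs in KO T-lineage cells, 4.61 in KO erythroid-like cells and 5.33 in KO neutrophil-lineage-like cells, so its ratio to T cell RNA was of similar size in the 3 KO lineages. In WT it had 0.502, 1.85 and 0.395 UMIs, the latter values resting on 5 and 1 UMIs. Cdkn1a had 5.28, 4.01 and 46.9 UMIs by the same measure, and Bax 42.1, 74.0 and 120 UMIs, so that neutrophil-lineage-like cells held more Cdkn1a, and both other lineages more Bax, per T cell UMI than T-lineage cells did.

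Over erythroid-like cells (291 WT, 538 KO) the summed member level was 235 CPM (217 to 255) in WT and 261 CPM (241 to 282) in KO, a ratio of 1.11 (0.993 to 1.24), and of the 5 members with 50 UMIs only Bbc3 was past 1.5-fold (6.72% of all genes were). Over neutrophil-lineage-like cells (204 WT, 355 KO) the summed ratio was 1.44 (1.31 to 1.58), with Cdkn1a at 34.2 CPM (27.8 to 41.7) in WT and 73.9 CPM (64.4 to 84.3) in KO. T cell genes were also higher in KO in these cells, at 894 CPM in WT and 1578 CPM in KO with haemoglobin left out of the total, and their part in the summed ratio was not tested.

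Detection of Cdkn1a or Phlda3 marked cells with more of the other members. In KO T-lineage cells thinned to 1000 UMIs, the 519 cells with a UMI of either gene held 840 CPM of the other 8 members and the 11236 cells without held 452 CPM, a ratio of 1.86 (1.68 to 2.05). The same ratio was 2.05 (1.69 to 2.47) within resting, 2.23 (1.77 to 2.77) within activated and 2.13 (1.51 to 2.93) within cycling cluster 5 cells, and 1.25 (1.01 to 1.51) in shallow cluster 2. The 55 WT cells with such a UMI also held more of the other 8, at 745 CPM against 363 CPM (2.05, 1.47 to 2.79). T cell genes served as a comparison at the same depth and were lower in the cells with a UMI, at 0.899 times (0.869 to 0.931) in KO.

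**Figure D3:**
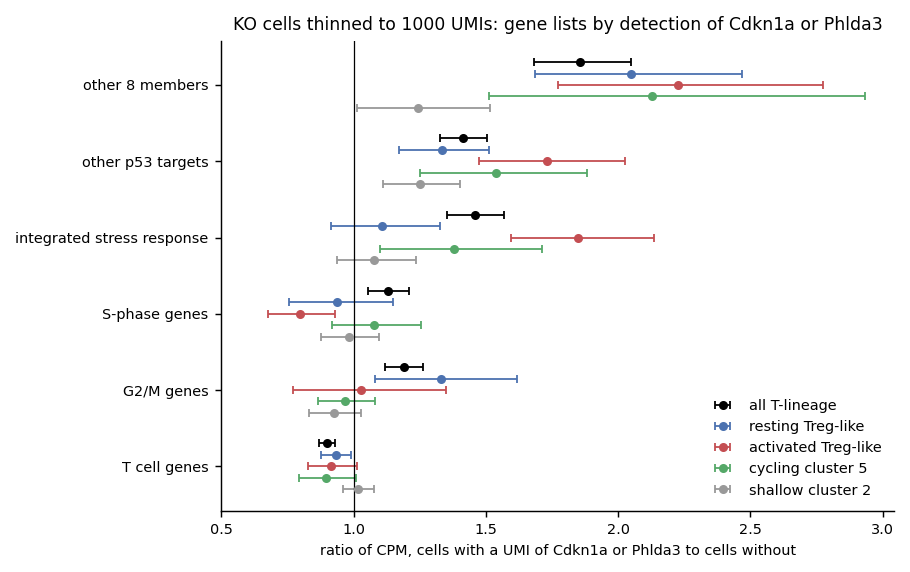
Ratio of CPM between KO cells with and without a UMI of Cdkn1a or Phlda3, all thinned to 1000 UMIs (x axis), for 6 gene lists (y axis) in T-lineage cells and 4 of their classes (colours), with 95% conditional binomial intervals. The other 8 members lie at 1.86 in all T-lineage cells, and T cell genes at 0.899.

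Other p53 targets not among the members had a ratio of 1.41 (1.33 to 1.51) in the same KO cells with a Cdkn1a or Phlda3 UMI, and 1.73 (1.48 to 2.03) within activated cells. Integrated stress response genes, a program of amino acid and protein folding stress (here without Sesn2, which is also a p53 target), had 1.46 (1.35 to 1.57) in all KO T-lineage cells, 1.11 (0.915 to 1.33) within resting and 1.85 (1.59 to 2.14) within activated cells. Within activated KO cells, S-phase genes were lower in the cells with such a UMI, at 0.796 times (0.677 to 0.931). Over all KO T-lineage cells they were higher in the cells with such a UMI, at 1.13 times (1.06 to 1.21), as were G2/M genes at 1.19 times (1.12 to 1.26), and within resting cells G2/M genes were at 1.33 times (1.08 to 1.62).

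Of 45 other described p53 targets, 40 had at least 50 UMIs in T-lineage cells. Of these, 7 were at least 1.5-fold higher in KO (6.14% of all genes) and 2 at least 1.5-fold lower (12.3% of all genes). Their median log2 ratio was 0.08 against -0.07 over all genes and 0.69 over the 9 members, which were chosen on this contrast. The highest were Psrc1 (a microtubule-binding protein, 3.63 CPM in WT and 11.97 CPM in KO, ratio 3.29, 2.78 to 3.92), the phosphatase gene Ptp4a3 (56.5 CPM in WT and 134 CPM in KO, ratio 2.37, 2.27 to 2.48), the noncoding RNA Trp53cor1 (ratio 2.36, 1.27 to 4.61, on 53 UMIs), Dglucy (ratio 2.29, 1.65 to 3.23) and the stress sensor Sesn2 (ratio 1.91, 1.62 to 2.26). The lowest were Rrm2b, a ribonucleotide reductase subunit (ratio 0.545, 0.483 to 0.614), Tnfaip8 (ratio 0.559, 0.537 to 0.581) and the apoptosome gene Apaf1 (ratio 0.690, 0.616 to 0.772). Those other targets thus included genes in both directions.

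Of 15 genes for p53 itself and its regulators, 14 had enough UMIs, with a median log2 ratio of -0.10. None was past 1.5-fold either way, where 6.14% of all genes were higher and 12.3% lower. Trp53, which encodes p53, was 93.5 CPM in WT and 112 CPM in KO, a ratio of 1.20 (1.15 to 1.25), and the p53 inhibitor Mdm4 had a ratio of 0.935 (0.887 to 0.986). The genes furthest from 1 in this list were Prkdc (DNA-dependent protein kinase, 0.672, 0.607 to 0.743), Chek2 (a checkpoint kinase, 0.747, 0.625 to 0.892) and Cop1 (a ubiquitin ligase for p53, 0.790, 0.726 to 0.859). p53 is controlled mainly at the protein level, which was not measured here.

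**Figure D4:**
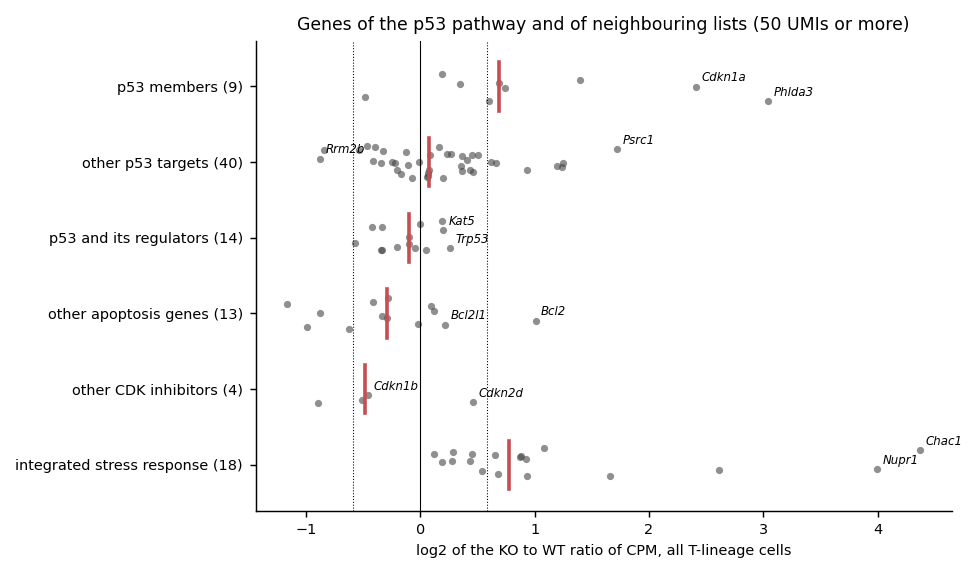
log2 of the KO to WT ratio in T-lineage cells (x axis) for single genes (points, 50 UMIs or more) of 6 lists, with the number of genes in brackets, red bars at list medians and dotted lines at 1.5-fold; Sesn2 stands in both the other p53 targets and the stress response. The members' median of 0.69 and that of the stress response list, 0.78, lie right of the other lists. The members were chosen on this contrast, and the other lists with earlier results of these data known, so nothing is read from their places.

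Among 13 other apoptosis genes with enough UMIs, the median log2 ratio was -0.29. Of these, 1 was at least 1.5-fold higher in KO (6.14% of all genes) and 4 at least 1.5-fold lower (12.3% of all genes). The survival gene Bcl2 was 156 CPM in WT and 314 CPM in KO (2.01, 1.96 to 2.07), and Bcl2a1b, another survival gene, was 148 and 66.3 CPM (0.447, 0.429 to 0.465). Of 4 other CDK inhibitors, 1 was at least 1.5-fold lower (12.3% of all genes) and none at least 1.5-fold higher (6.14% of all genes). Cdkn1b (p27) was 111 and 81.2 CPM (0.728, 0.699 to 0.758), Cdkn1c 22.8 and 12.3 CPM (0.538, 0.487 to 0.593), Cdkn2c 13.8 and 9.70 CPM (0.703, 0.625 to 0.791) and Cdkn2d 132 and 182 CPM (1.37, 1.33 to 1.42). Cdkn1a had a larger KO to WT ratio than these, but as a member it was chosen on this contrast, so nothing is read from that order. The lists of genes other than the members were likewise chosen with earlier results of these data known, so nothing is read from their counts or medians. In the integrated stress response list, 11 of 18 genes were at least 1.5-fold higher (6.14% of all genes) and none at least 1.5-fold lower (12.3% of all genes). Sesn2, which is also among the other p53 targets, was counted as higher here. The median log2 ratio of the stress response list was 0.78, and the furthest were Chac1 (5 and 111 UMIs, ratio 20.7, 8.59 to 64.9), Nupr1 (12 and 206 UMIs, ratio 15.97, 8.95 to 31.4) and Trib3 (83 and 546 UMIs, ratio 6.12, 4.85 to 7.81).

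The genes whose level over the 15 groups of cells was most like the members' mean profile, among 10226 with at least 200 UMIs, were Lmf1 (Pearson r 0.908), Socs2 (0.891), Gpr65 (0.879), Ptp4a3 (0.866), Tnfsf8 (0.860), Mgmt (0.860), Atf5 (0.859), Psrc1 (0.853), Hemk1 (0.852) and Nudt6 (0.834). Of these, Ptp4a3 and Psrc1 stand in the list of other p53 targets. The points share 2 libraries and differ in depth, so that r describes these groups only. They also span WT and KO, the contrast on which the members were chosen, so nothing is read from the size of r.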

How the data were processed

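The authors aligned and counted the reads with Cell Ranger 5.0.1 on mm10 and deposited raw UMI counts per gene and cell. The files still held cells beyond the study's gene and mitochondrial limits, in total 14524 WT cells with 64567991 UMIs and 18134 KO cells with 65480052 UMIs. Kept cells had 300 or more genes and no more than 5% mitochondrial UMIs, and no doublets were removed in the main values. Cells were clustered with scanpy 1.11.5 and scikit-learn 1.9.0 (2000 variable genes, leaving out the p53 lists and the T cell and lineage markers but not the cycle genes, 30 components, 20 neighbours, Leiden resolution 0.5 with leidenalg 0.10.2), with no batch correction. T-lineage clusters had at least 50 cells and at least 50% of the highest cluster's CPM of T cell genes.

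UMIs were summed per library and class, as CPM with exact Poisson intervals, KO to WT ratios with exact conditional binomial intervals and shares with exact Clopper-Pearson intervals (scipy 1.17.1). PCR and sampling beyond counting, and the spread between mice, are not covered. With 1 library per genotype no test between genotypes was run. For medians of log2 ratios, 0.5 was added to each UMI sum, and genes needed 50 UMIs over both libraries. The ratio calculation was run on simulated Poisson counts with known folds. These follow the same counting model as the intervals, so the run says nothing about spread between cells or mice. Alternatives changed the scaling (TMM factors from edgeR 4.0.16), depth, filters, doublet removal, T-lineage definition, cluster resolution and cycling limit. Gene positions came from GENCODE vM21 and promoter windows from RefSeq.

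The members and the gene lists were chosen with earlier results of these data known. All 10 members are named. Of the other lists the 5 highest and 3 lowest ratios of the other targets, the 3 furthest from 1 of each other list, and Trp53, Mdm4 and Cdkn1b are named, except 1 gene that is not reported here. By likeness of profile, 10 genes are named. The split of cycling cells by S-phase and G2/M genes, the comparison of cells with and without Cdkn1a or Phlda3, and the depth-matched values by class were chosen after seeing the data.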

Additional observations from a re-analysis of the deposited data

Results flagged for a closer look

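Over all cells of each class, the Mdm2 ratio lay on different sides of 1 in different T cell states. Its KO to WT ratio was 0.885 (0.787 to 0.995) in resting Treg-like cells, and 1.54 (1.25 to 1.91) in activated, 1.58 (1.07 to 2.27) in effector, 1.31 (1.11 to 1.54) in cycling cluster 5, 1.49 (1.22 to 1.82) in cycling cluster 6 and 1.77 (1.13 to 2.75) in cluster 7 cells. In cells of 2000 to 6000 UMIs the ratio was 0.916 (0.794 to 1.06) in resting and 1.33 (0.684 to 2.84) in activated cells, so that neither could be told from 1. The difference between states was not tested, since each genotype has 1 library.

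Cells left out for more than 5% mitochondrial UMIs, with at least 2 UMIs of T cell genes and under 1% haemoglobin, also held the members at unequal levels. The ratio of the 10 members summed was 1.66 (1.59 to 1.74). Single ratios were 6.26 (4.31 to 9.35) for Phlda3, 5.34 (4.06 to 7.11) for Cdkn1a, 2.41 (1.88 to 3.10) for Zmat3, 2.24 (1.78 to 2.85) for Bbc3, 1.83 (1.70 to 1.96) for Bax, 1.61 (1.38 to 1.88) for Aen and 1.40 (1.18 to 1.66) for Ccng1. Mdm2 at 1.075 (0.9345 to 1.237) and Trp53inp1 at 0.893 (0.777 to 1.026) had intervals that include 1, and Eda2r had no UMI.

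In cells of other lineages, the ratio in erythroid-like cells was 4.27 (1.56 to 14.6) for Cdkn1a on 5 and 20 UMIs, 4.92 (1.83 to 16.6) for Phlda3 on 5 and 23 UMIs, and 1.76 (1.13 to 2.78) for Bbc3. In neutrophil-lineage-like cells it was 2.16 (1.69 to 2.77) for Cdkn1a, 23.8 (3.90 to 977) for Phlda3 on 1 and 25 UMIs, and 1.35 (1.19 to 1.54) for Bax. T cell RNA was higher in KO in both lineages, and its part was not tested.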

How the results depend on the processing

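The count of members at least 1.5-fold higher in KO was 4 to 6 over 15 alternatives, against 6. No share of all genes is given for the alternatives, so nothing is read from these counts. The summed ratio stayed above 1 in the 13 alternatives for all T-lineage cells (1.29 to 1.73, against 1.55), the 11 for non-cycling cells (1.11 to 1.39, against 1.29) and the 13 for cycling cells (1.38 to 1.75, against 1.68). For all T-lineage, non-cycling and cycling cells in turn, it left its counting interval with TMM scaling (1.63, 1.38, 1.74), as a mean of single-cell CPM (1.44, 1.19, 1.53), with cells thinned to 1000 UMIs (1.38, 1.11, 1.48) and in cells of 2000 to 6000 UMIs (1.29, 1.15, 1.38). Scaling without haemoglobin, ribosomal and mitochondrial genes gave 1.59 for all and 1.73 for cycling cells. With T-lineage cells taken by a gate, the non-cycling ratio was 1.39 with no mitochondrial filter and 1.39 with a limit of 10%. Cycling at 3 or more UMIs gave 1.75. Of alternatives chosen after seeing the data, weighting KO classes by WT class totals gave 1.73 for all T-lineage cells, cycling at 5 or more UMIs gave 1.75, and leaving out the shallow clusters 2 and 8 gave 1.56. As point values, single ratios kept their side of 1 in each alternative, and ranged from 3.97 to 7.30 for Cdkn1a, 4.34 to 9.56 for Phlda3, 1.69 to 3.18 for Bbc3, 1.14 to 1.80 for Zmat3, 1.02 to 1.49 for Ccng1, 1.01 to 1.31 for Mdm2 and 0.622 to 0.821 for Trp53inp1. In cells of 2000 to 6000 UMIs the interval included 1 for Mdm2 (0.9005 to 1.138), Ccng1 (0.8999 to 1.165) and Zmat3 (0.913 to 1.43). With thinning to 1000 UMIs it included 1 for Ccng1 (0.983 to 1.37) and Zmat3 (0.973 to 1.76). TMM shifted log2 ratios by 0.08 in all T-lineage, 0.10 in non-cycling and 0.05 in cycling cells. The causes were not tested. No paired analysis was possible because each genotype has 1 library.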
